A study of Mus musculus with 4 samples.

Results

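The genes described here carry cells through mitosis and cytokinesis: cyclins and Cdk1, mitotic kinases, the chromosomal passenger complex, the spindle checkpoint, the kinetochore, the spindle and the cleavage machinery. They were a list of 40 genes, read from all probe sets whose platform annotation gave 1 of these symbols: 78 of 45101 probe sets, for 39 of the 40 genes, among 18193 genes with a probe set. Ccnb1, the cyclin B1 gene, had no such probe set and was not analysed here. A probe set is a group of short probes that reads 1 transcript, and its value here is a MAS5 signal intensity on a linear scale.

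The cells were muscle satellite cells, the stem cells of skeletal muscle, sorted for YFP straight from muscle without culture. The Calcr cKO samples came from Pax7-CreERT2 mice with Calcr flox/flox and Rosa-YFP, in which tamoxifen removes the calcitonin receptor gene in Pax7-expressing cells. Control samples came from Pax7-CreERT2 mice with Calcr +/+ and Rosa-YFP, so both groups carried the Cre and the reporter, and both received tamoxifen. All mice were 10 weeks old, and cells were sorted 2 weeks after tamoxifen. Each group had 2 biological replicates on 1 array each, numbered 1 and 2, and this number of arrays limits the precision.

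In a quiescent cell most mitotic genes are held silent, and they are switched on together late in the cycle. Many of their promoters carry a cell cycle genes homology region, read by the DREAM complex in resting cells and by B-Myb and FoxM1 in dividing cells, and CCAAT boxes, read by NF-Y. The calcitonin receptor is known as a marker of quiescent satellite cells, and the comparison asks here whether mitotic transcripts differ once it is deleted.

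As these genes move together in many cells, 7 of their promoters are shown, 200 bases up to the base before the start of transcription, from RefSeq on GRCm38.p6, written 5′ to 3′ in the direction of the gene. Capitals mark TTTGAA, the common form of the homology region, and CCAAT, each on either strand (as TTCAAA and ATTGG). The first 5 genes carry both motifs, Birc5 carries neither, and Bub1 carries CCAAT alone. In Ube2c, CCAAT and ATTGG overlap once, which gives a run of both.
Mki67, chr7:135716380-135716579, minus strand: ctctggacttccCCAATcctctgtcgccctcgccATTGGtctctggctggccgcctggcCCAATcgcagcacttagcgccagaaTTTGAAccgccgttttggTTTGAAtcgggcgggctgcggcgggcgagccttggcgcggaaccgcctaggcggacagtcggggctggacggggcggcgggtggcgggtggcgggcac
Cdk1, chr10:69352913-69353112, minus strand: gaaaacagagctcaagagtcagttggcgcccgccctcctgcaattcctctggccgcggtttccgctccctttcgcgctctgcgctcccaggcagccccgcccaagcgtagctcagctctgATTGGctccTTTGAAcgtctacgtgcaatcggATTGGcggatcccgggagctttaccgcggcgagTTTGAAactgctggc
Cdc20, chr4:118437344-118437543, minus strand: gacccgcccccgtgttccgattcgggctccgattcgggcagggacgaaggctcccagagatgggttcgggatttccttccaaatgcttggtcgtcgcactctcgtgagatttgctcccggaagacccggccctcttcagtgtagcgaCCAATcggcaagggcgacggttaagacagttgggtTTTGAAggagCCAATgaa
Ube2c, chr2:164769729-164769928, plus strand: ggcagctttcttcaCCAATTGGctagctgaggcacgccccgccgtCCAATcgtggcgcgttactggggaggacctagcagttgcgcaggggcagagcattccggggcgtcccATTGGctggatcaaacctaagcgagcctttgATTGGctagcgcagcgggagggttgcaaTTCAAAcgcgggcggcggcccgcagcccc
Kif11, chr19:37376182-37376381, plus strand: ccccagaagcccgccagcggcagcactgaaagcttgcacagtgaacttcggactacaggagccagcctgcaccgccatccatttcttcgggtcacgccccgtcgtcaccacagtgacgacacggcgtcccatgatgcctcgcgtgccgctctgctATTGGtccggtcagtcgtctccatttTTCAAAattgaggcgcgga
Birc5, chr11:117849037-117849236, plus strand: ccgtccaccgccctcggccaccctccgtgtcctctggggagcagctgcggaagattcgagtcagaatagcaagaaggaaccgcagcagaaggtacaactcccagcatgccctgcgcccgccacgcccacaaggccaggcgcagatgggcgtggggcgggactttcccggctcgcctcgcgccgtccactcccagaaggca
Bub1, chr2:127831860-127832059, minus strand: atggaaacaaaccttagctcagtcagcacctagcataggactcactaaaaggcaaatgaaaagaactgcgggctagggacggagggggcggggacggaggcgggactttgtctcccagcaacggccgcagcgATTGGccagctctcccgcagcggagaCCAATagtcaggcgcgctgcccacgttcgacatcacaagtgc

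Over the full window of 300 bases (250 before to 50 after the start), RefSeq gave 34 promoters for 32 of the 40 genes. TTTGAA stood in 25 of these 34 promoters (73.5%), against 17.9% of all 32851 promoters. CCAAT stood in 27 (79.4%), against 37.4% of all. Both stood in 23 (67.6%), against 6.95% of all, and the motifs overlapped each other in 1 promoter. A match of letters is a description of the window and not a bound site. Among the other mitotic genes listed for comparison, TTTGAA stood in 37.3% and CCAAT in 52.9% of 153 promoters.

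As a check of the labels, Calcr read 568 and 684 in Calcr cKO cells, against 1268 and 1424 in control cells, on its 1 probe set. Calcr was thus lower on each cKO array than on either control array, as the labels say, but signal remained. The position of this probe set in relation to the floxed part of Calcr was not analysed here. The satellite cell transcription factor gene Pax7 read 2170 and 2434 in Calcr cKO and 2319 and 3647 in control cells, so the labelled cell type carried its defining marker on every array. Median signals over all probe sets were 68.8 and 57.8 in Calcr cKO and 70.4 and 64.3 in control cells.

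Mitosis and cytokinesis genes read higher in Calcr cKO cells than in control cells. Dim probe sets were set aside at a cutoff of 63.9, the median of the 4-array means, and a gene was read from its brightest kept probe set. This left 35 genes, all with a higher mean log2 signal in Calcr cKO, and the median log2 difference was 0.50. In 29 of them both cKO arrays lay above both control arrays, in 0 both lay below, and in 6 the groups overlapped. Over all 10140 genes, 8.53% were higher and 12.1% lower in this way, 42.7% had a higher and 57.3% a lower mean, and the median log2 difference was -0.04. At least 1.5-fold higher without overlap were 12 members, against 1.21% of all genes. In RNA of a sorted population, more cells in mitosis and more transcript per cell cannot be told apart. The genes were chosen with results of these data known, so these counts describe the list and are not a test of it.

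No single member passed the test. In limma, fitted over 22519 probe sets, 0 had an adjusted p under 0.05 (0% of all), and the smallest adjusted p of any probe set was 0.99999. Calcr, the deleted gene, thus did not pass either, at 2.15-fold lower with an unadjusted limma p of 0.00292. At an unadjusted limma p under 0.05 there were 163 probe sets in all, or 0.724%. Among the brightest probe sets of genes, 27 were higher at that level (0.266%), and 5 of these were members: Mki67, Pbk, Stmn1, Birc5 and Incenp. With 2 arrays a group an exact permutation test cannot give a 2-sided p below 0.333.

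**Figure D1:**
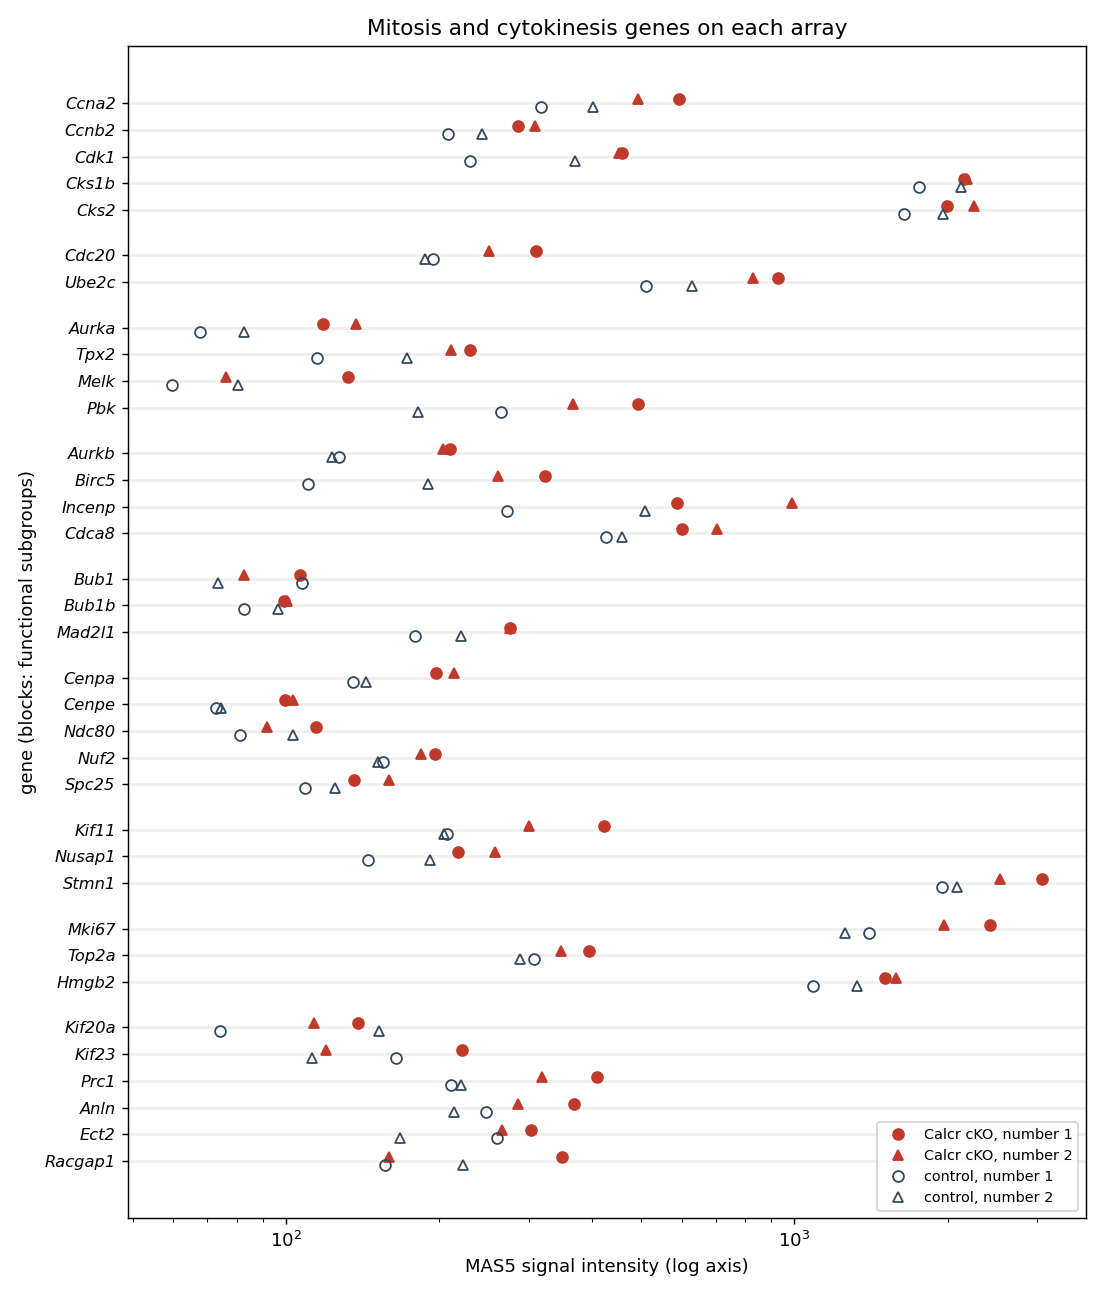
MAS5 signal intensity (log axis) of each of the 35 kept genes on the 4 arrays, in blocks by function from cyclins (top) to cytokinesis (bottom). Filled red symbols are Calcr cKO and open dark symbols control, circles are number 1 and triangles number 2. The filled symbols lie right of both open ones in 29 genes.

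The cyclin and Cdk1 group sets the timing of entry into mitosis. The cyclin A2 gene Ccna2, which acts from S phase into early mitosis, read 594 and 491 in Calcr cKO, against 317 and 402 in control cells. The cyclin B2 gene Ccnb2, a partner of Cdk1, read 285 and 308 in Calcr cKO, against 208 and 243 in control. Cdk1, the mitotic kinase itself, read 458 and 451 in Calcr cKO, against 230 and 370 in control. In all 3 genes both cKO arrays were the higher ones, with log2 differences of 0.60 ± 0.31, 0.40 ± 0.32 and 0.64 ± 0.35 (limma SE). The small Cdk-binding proteins differed least in this group. Cks1b read 2157 and 2183 in Calcr cKO, against 1761 and 2128 in control cells, so cKO number 1 and control number 2 were close (log2 difference 0.16 ± 0.19), and its other kept probe set overlapped (0.20). Cks2 read 1994 and 2254 in Calcr cKO, against 1642 and 1962 in control (0.24 ± 0.20). Cdc25c, the phosphatase gene that activates Cdk1, was dim on both of its probe sets. Its probe set of higher mean read 45.8 and 25.8 in Calcr cKO, against 21.7 and 27.3 in control, and the groups overlapped.

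An activator and an enzyme of the anaphase-promoting complex, which marks cyclins and securin for destruction, read higher on both cKO arrays on their brightest probe sets. Cdc20, the activating subunit, read 310 and 251 in Calcr cKO, against 194 and 187 in control cells. Ube2c, the ubiquitin-conjugating enzyme gene of the complex, read 927 and 827 in Calcr cKO, against 511 and 629 in control. Their log2 differences were 0.54 ± 0.33 and 0.63 ± 0.27 (limma SE). The probe set of Cdc20 has the suffix _x_at, which marks probes shared with other sequences. A kept probe set of Cdc20 without a suffix differed by 0.53 without overlap, and another _x_at one overlapped, at 80.7 and 87.7 in Calcr cKO and 92.8 and 52.1 in control (0.27). Both promoters shown above hold TTTGAA and CCAAT.

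Among the mitotic kinases, Pbk, also known as TOPK, read 493 and 367 in Calcr cKO, against 265 and 182 in control cells, a log2 difference of 0.95 ± 0.36 (limma SE, unadjusted p = 0.0308). Its only probe set has the suffix _s_at, so Pbk dropped out when only unsuffixed probe sets were used. The brightest probe sets of 6 members have this suffix. Aurka, the centrosomal Aurora kinase gene, read 118 and 137 in Calcr cKO, against 67.8 and 82.6 in control (0.76 ± 0.38). Tpx2, which activates Aurora A on spindle microtubules, read 230 and 211 in Calcr cKO, against 115 and 173 in control (0.64 ± 0.37). These 3 genes did not overlap between the groups. Melk, a kinase gene raised in dividing progenitors, read 132 and 76.1 in Calcr cKO, against 59.6 and 80.4 in control, so cKO number 2 fell among the controls. Plk1, the polo-like kinase gene, was below the filter and read 55.1 and 75.1 in Calcr cKO, against 39.01 and 24.7 in control. Its cKO arrays were the brighter ones, at a level where 10.7% of all dim probe sets were higher without overlap.

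The chromosomal passenger complex corrects chromosome attachment and then moves to the cleavage site. On their brightest probe sets all 4 members were higher on both cKO arrays, against 8.53% of all genes. The median log2 difference of the complex, 0.86, was the highest of the 9 functional groups, whose medians were not tested against each other. Birc5, the survivin gene, read 324 and 261 in Calcr cKO, against 110 and 190 in control cells, a log2 difference of 1.0 ± 0.39 (limma SE, unadjusted p = 0.0368). Incenp, the scaffold gene, read 587 and 987 in Calcr cKO, against 272 and 509 in control (1.03 ± 0.41). This probe set too has the suffix _x_at. A second kept probe set of Incenp without a suffix read 151 and 144 in Calcr cKO, against 85.1 and 110 in control (log2 difference 0.61). Aurkb, the kinase gene of the complex, read 210 and 204 in Calcr cKO, against 127 and 123 in control (0.72 ± 0.34), with the arrays of each group close together. Cdca8, the borealin gene, read 601 and 705 in Calcr cKO, against 426 and 459 in control (0.56 ± 0.29). Its other kept probe set differed by 0.42 without overlap. A dim, unsuffixed one overlapped, at 58.7 and 46.3 in Calcr cKO and 47.4 and 99.6 in control (-0.39).

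The spindle assembly checkpoint, which delays anaphase until chromosomes are attached, had the lowest group median, 0.16 on the log2 scale over 3 kept members. Mad2l1, the inhibitor of Cdc20, read 276 and 276 in Calcr cKO, against 179 and 221 in control cells (0.47 ± 0.33, limma SE). Bub1b, the BubR1 gene, read 99.0 and 100.2 in Calcr cKO, against 82.8 and 96.2 in control, a difference within the SE (0.16 ± 0.38). Its other kept probe set had the opposite sign (-0.24), and a dim one read lower on both cKO arrays. Bub1, the kinetochore kinase gene, overlapped, at 106 and 82.7 in Calcr cKO and 108 and 73.3 in control cells (0.08 ± 0.41). Without cKO number 1 the difference of Bub1 turned to -0.10, and without control number 2 to -0.20. Ttk, the Mps1 kinase gene that starts the checkpoint, was below the filter, at 56.5 and 59.3 in Calcr cKO, against 29.6 and 50.5 in control, on the brighter of its 2 probe sets.

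At the centromere, Cenpa, the histone H3 variant gene that marks it, read 197 and 214 in Calcr cKO, against 135 and 144 in control cells (0.56 ± 0.34, limma SE). Cenpe, a kinetochore motor gene, read 99.4 and 103 in Calcr cKO, against 72.8 and 74.5 in control (0.45 ± 0.38). In both genes the gap between the groups was wider than the spread within them. The Ndc80 complex, which holds microtubules, showed smaller differences. Nuf2 read 196 and 184 in Calcr cKO, against 155 and 152 in control (0.31 ± 0.34). Spc25 read 136 and 159 in Calcr cKO, against 109 and 124 in control (0.33 ± 0.36), and its other kept probe set differed by -0.06. Ndc80 itself overlapped, at 114 and 91.5 in Calcr cKO and 81.0 and 103 in control, and its log2 difference of 0.16 became -0.01 without control number 1.

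Of the spindle genes, Kif11, the motor that pushes spindle poles apart, read 422 and 300 in Calcr cKO, against 207 and 204 in control cells (0.79 ± 0.34, limma SE). Its 2 other kept probe sets differed by 0.74 and 0.60, also without overlap. Nusap1, a microtubule-bundling protein gene, read 218 and 257 in Calcr cKO, against 145 and 192 in control (0.50 ± 0.35). Stmn1, which encodes the tubulin-binding protein stathmin, read 3068 and 2539 in Calcr cKO, against 1952 and 2091 in control (0.47 ± 0.18). A second, unsuffixed probe set of Stmn1 showed a larger gap, at 896 and 721 in Calcr cKO, against 388 and 445 in control (log2 difference 0.95).

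Genes of chromosome structure did not overlap between the groups on their brightest probe sets. Mki67, whose protein coats mitotic chromosomes, read 2427 and 1971 in Calcr cKO, against 1404 and 1257 in control cells. Its log2 difference of 0.72 ± 0.21 (limma SE) had the smallest unadjusted p of the members, 0.0104. Top2a, the topoisomerase gene that untangles sister chromatids, read 395 and 347 in Calcr cKO, against 307 and 288 in control (0.32 ± 0.31). Hmgb2, a chromatin protein gene, read 1509 and 1586 in Calcr cKO, against 1089 and 1328 in control (0.36 ± 0.22). Dimmer kept probe sets of 2 of these genes did overlap. That of Top2a read 80.9 and 114 in Calcr cKO and 86.0 and 98.1 in control cells (log2 difference 0.07), and that of Hmgb2 read 56.3 and 111 in Calcr cKO and 44.3 and 98.7 in control (0.25). Another kept probe set of Hmgb2 differed by 0.43 without overlap.

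The central spindle and cytokinesis genes had 3 of 6 kept members overlapping between the groups, against 8053 of all 10140 genes. The other 3 were higher without overlap (50%), against 8.53% of all genes. Prc1, which bundles central spindle microtubules, read 409 and 319 in Calcr cKO, against 211 and 221 in control cells (0.74 ± 0.33, limma SE). Anln, the anillin gene of the contractile ring, read 369 and 286 in Calcr cKO, against 247 and 214 in control (0.50 ± 0.33). Ect2, the RhoA exchange factor gene, read 303 and 266 in Calcr cKO, against 260 and 167 in control, so cKO number 2 and control number 1 nearly met (0.44 ± 0.36). Both subunits of centralspindlin, the complex that brings Ect2 to the midzone, overlapped on their brightest probe sets. Kif23 read 222 and 120 in Calcr cKO and 165 and 112 in control, and Racgap1 read 348 and 159 in Calcr cKO and 156 and 223 in control. The other kept probe set of each did not overlap, with log2 differences of 0.94 for Kif23 and 0.40 for Racgap1. Kif20a, a midzone motor gene, read 139 and 113 in Calcr cKO and 74.3 and 152 in control. The difference turned negative without control number 1 for Kif20a (-0.28), without cKO number 1 for Racgap1 (-0.23), and for Kif23 without cKO number 1 (-0.18) or control number 2 (-0.01). Kif4, a chromosome-bound motor gene, was below the filter, at 58.3 and 54.8 in Calcr cKO, against 51.8 and 35.9 in control.

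**Figure D2:**
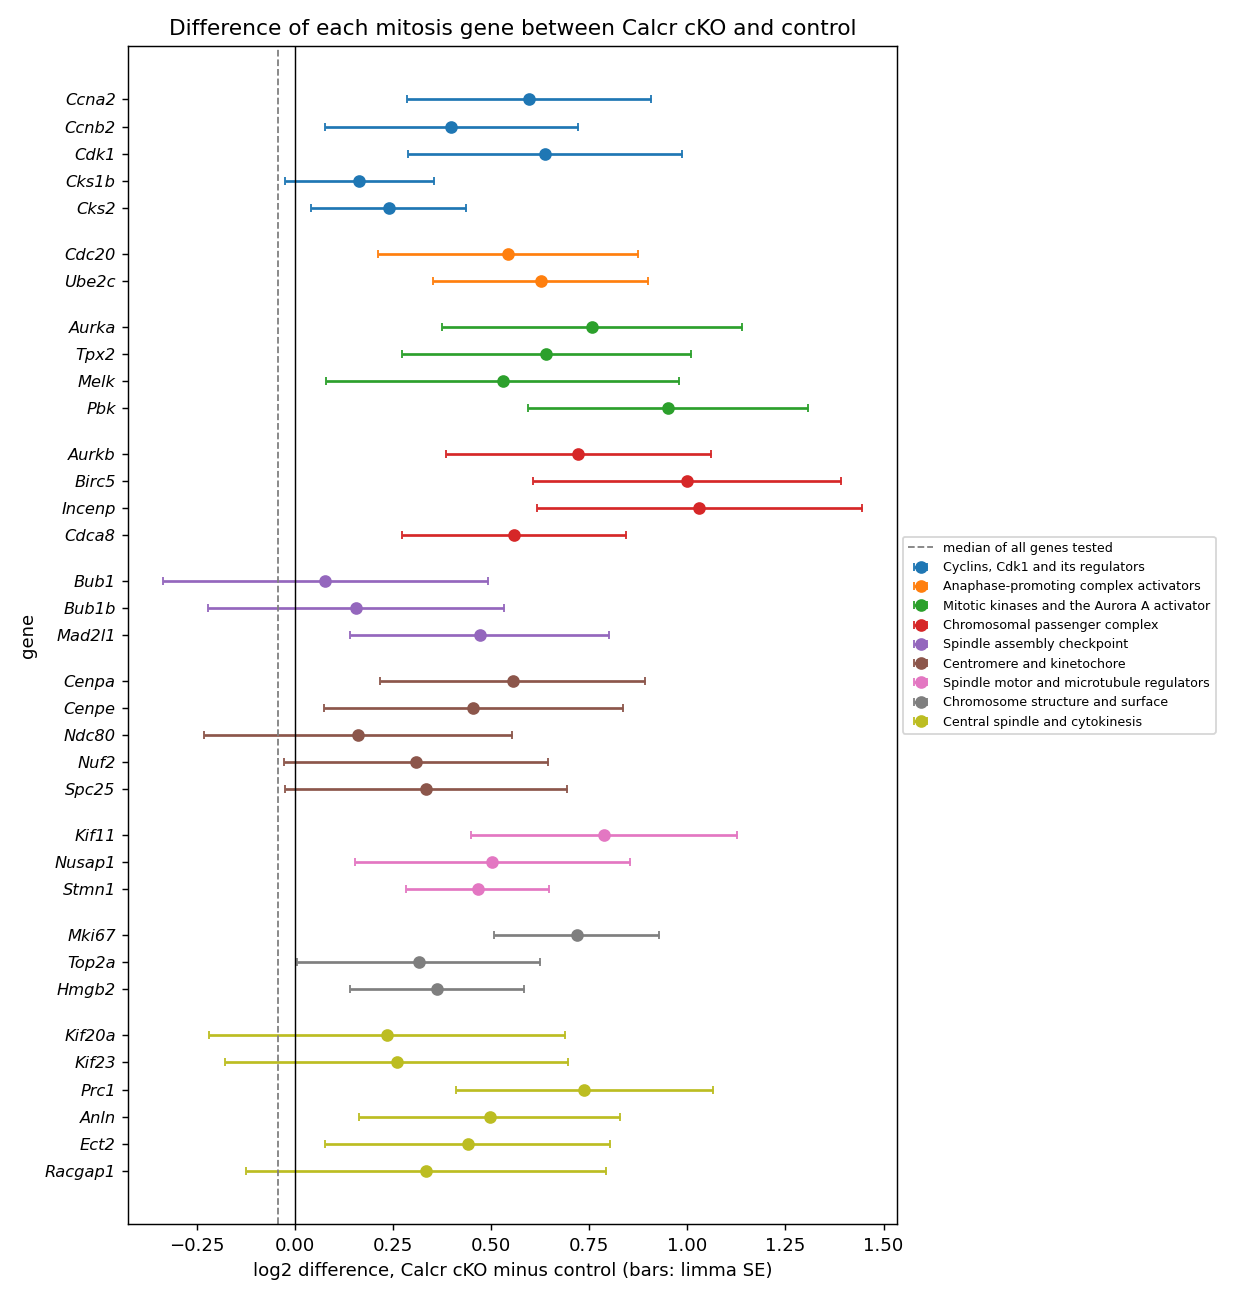
Log2 difference of each kept gene, Calcr cKO minus control, with the limma SE as bars and colours for the functional groups. All 35 points lie above 0, from 0.08 (Bub1) to 1.03 (Incenp), while the dashed line marks the median of all genes tested at -0.04.

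Several kept probe sets read the same gene in 18 members, and in 16 of these all kept probe sets had the same sign. The exceptions were Bub1b and Spc25. Of the 21 kept probe sets that were not the brightest of their gene, 19 were higher in Calcr cKO and 15 without overlap. Over all 56 kept probe sets, 44 were higher without overlap and 0 lower, against 7.87% and 13.5% of all kept probe sets. Below the filter lay 22 probe sets, of which 9 were higher without overlap and 2 lower, 1 each of Tpx2 and Bub1b. Of all probe sets below the filter, 10.7% were higher without overlap, and of all probe sets without a filter 9.27%. With no filter all 39 genes could be read, and 32 were higher without overlap and 0 lower, against 9.44% and 15.8% of 18193 genes.

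Within replicate number 1, 34 of 35 members read higher in Calcr cKO than in control, against 61.7% of all genes, with a median log2 difference of 0.62. Within number 2, 31 of 35 did, against 32.2% of all genes, with a median of 0.35. The median of all genes was 0.09 within number 1 and -0.19 within number 2. Relative to it, the members stood at 0.53 within both numbers. In 30 members the difference was positive within both, against 17% of all genes. The sizes of the members' differences did not run parallel between the numbers, with a Pearson r of 0.08 across 35 genes, against -0.17 across all 10140 genes, which share the same 4 arrays. Birc5, for example, differed by 1.54 within number 1 and 0.46 within number 2, and Racgap1 by 1.15 and -0.48. In Pbk, Incenp, Aurkb, Aurka and Mki67 the smaller of both differences was 0.89, 0.95, 0.72, 0.72 and 0.65 in that order.

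**Figure D3:**
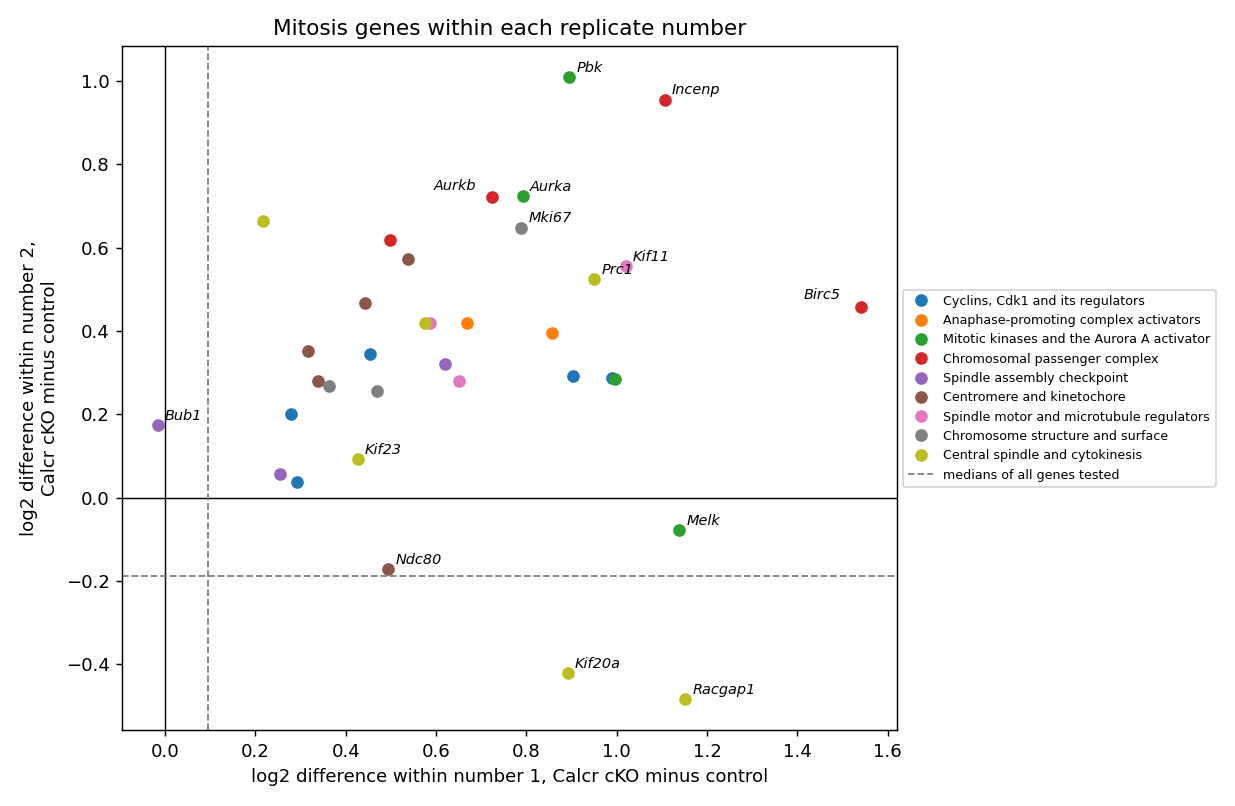
Log2 difference, Calcr cKO minus control, within number 1 (horizontal axis) and within number 2 (vertical axis), 1 point per kept gene, coloured by functional group. Dashed lines are the medians of all genes tested, 0.09 and -0.19, and 30 of 35 points lie above 0 on both axes.

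Mitotic genes outside the list were less uniform. Both sets of genes were chosen with results of these data known, so this contrast describes the lists and was not tested. Of 146 genes written down for comparison, 122 were kept, 90 of them with a higher mean in Calcr cKO and 32 with a lower one, and the median log2 difference was 0.18. Both cKO arrays lay above both control arrays in 38 (31.1%) and below in 5, against 8.53% and 12.1% of all genes. In the limma test 0 of the 122 passed. The count of 38 became 59 without cKO number 1, 64 without cKO number 2, 53 without control number 1 and 69 without control number 2. With 1 array for a group fewer orders of the arrays overlap, and the share of all genes higher without overlap was then 21.6%, 29.9%, 19.9% and 35.0% in the same order. With the stricter filter the count was 9 of 54 genes, against 8.41% of all genes, and the median was 0.03. The 5 genes lower without overlap, named after their values were seen, were Zwint, Kpna2, Smc1a, Rhoa and E2f5.

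Kinetochore genes outside the list had 20 of 24 members higher, 10 higher without overlap and 1 lower. The shares of all genes were 42.7%, 8.53% and 12.1% in that order. Knl1, the scaffold of the outer kinetochore, read 155 and 153 in Calcr cKO, against 86.9 and 80.7 in control cells. The inner kinetochore genes Cenpq and Cenpp were 1.71-fold and 1.70-fold higher and Zwilch, of the complex that recruits dynein, 1.90-fold. Zwint, which binds the Zw10 subunit of that complex, was the lower one, at 1460 and 1081 in Calcr cKO, against 1885 and 1583 in control cells (log2 difference -0.46). Other spindle genes had 14 of 16 higher and 8 without overlap (50%, against the same 8.53% of all genes). In that list Hmmr was 1.61-fold higher, Kif18b 1.58-fold, Aspm 1.47-fold and Ckap2 1.46-fold, all without overlap. Condensin and cohesion genes had 12 of 15 higher, with 6 higher and 1 lower without overlap. The shares of all genes were again 42.7%, 8.53% and 12.1%. The condensin subunit genes Ncapg (1.82-fold), Ncapd2 (1.62-fold), Ncapg2 (1.57-fold) and Smc4 (1.30-fold) did not overlap between the groups. Of the other condensin subunits, named after their values were seen, Smc2 (1.47-fold) did not overlap. Ncapd3 (1.13-fold), Ncaph2 (1.12-fold) and Ncaph (1.08-fold) did.

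Checkpoint and anaphase genes outside the list had 14 of 22 higher and 6 without overlap (27.3%), against 42.7% and 8.53% of all genes. Trip13, which recycles Mad2, was 1.66-fold higher, the cohesin protector gene Sgo2a 1.59-fold, the separase gene Espl1 1.46-fold and Fbxo5, an inhibitor of the anaphase-promoting complex, 1.46-fold. Of the other mitotic kinases and Cdk1 regulators, 12 of 13 were higher. They included Cdkn3, a phosphatase gene acting on Cdks, at 2.05-fold, the centriole kinase gene Plk4 at 1.55-fold and Nek7 at 1.28-fold. Arpp19, an inhibitor of the phosphatase that opposes Cdk1, overlapped (1.29-fold). The other cytokinesis genes had 8 of 14 higher and 1 without overlap (7.14%, against 8.53% of all genes), Arhgap11a at 1.76-fold. In that list Septin9 (log2 difference -0.54), Cep55 (0.46) and Myh10 (0.36) overlapped.

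Regulators of mitotic gene transcription had 10 of 18 members higher, against 42.7% of all genes, and 2 of them without overlap (11.1%), near the 8.53% of all genes. Those 2 were E2f8 and E2f7, repressors that are themselves cell cycle genes, with means 1.58-fold and 1.68-fold those of control cells. E2f5 was lower on both (log2 difference -0.47), and the NF-Y subunit gene Nfya overlapped (-0.49). Foxm1, named here after its values were seen because it acts on the same promoters, read 237 and 131 in Calcr cKO and 130 and 166 in control cells, so the groups overlapped.

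**Figure D4:**
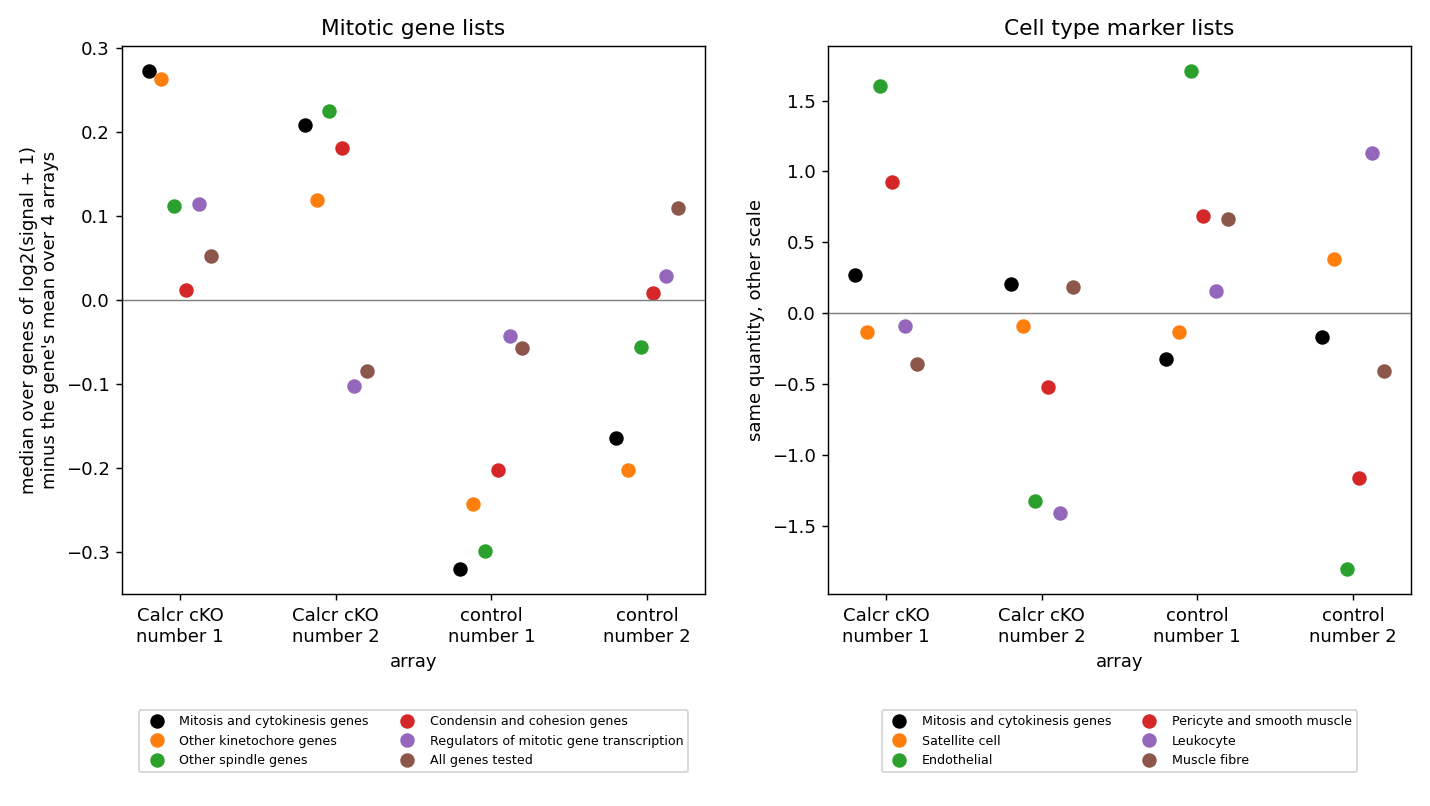
Median, over the genes of a list, of log2(signal + 1) minus the gene's mean over 4 arrays, for each array (Calcr cKO 1 and 2, control 1 and 2). Left, the mitosis and cytokinesis genes stand at 0.27 and 0.21 in Calcr cKO and at -0.32 and -0.16 in control cells, beside other mitotic lists and all genes. Right, on a wider scale, marker lists of cell types, of which the endothelial list and the pericyte and smooth muscle list follow the replicate number.

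Markers of several other cell types differed between arrays. Endothelial markers (12 of 14 kept) had a summed signal of 7897 and 1364 in Calcr cKO numbers 1 and 2 and of 8645 and 1134 in control numbers 1 and 2, so they were high on number 1 and low on number 2 in both groups. The mitosis genes differed between Calcr cKO and control by a median of 0.62 within number 1 and 0.35 within number 2. Relative to the median of all genes this was 0.53 within each number. Pericyte and smooth muscle markers (10 of 10) summed to 20786 and 10204 in Calcr cKO and 18095 and 12862 in control cells, also higher on number 1 in both groups. In control cells, though, Notch3, Tagln and Des read higher on number 2, and the other genes of that list on number 1. Leukocyte markers (6 of 14) summed to 1325 and 498 in Calcr cKO and 1355 and 2044 in control. Of the 6 kept, 5 had a lower mean in Calcr cKO, against 57.3% of all genes, and 1 a higher one. Without overlap 2 were lower, against 12.1% of all genes. The median log2 difference of the 6 was -1.43, with 0.28 within number 1 and -3.16 within number 2. Below the filter, the defining leukocyte gene Ptprc read 28.3 and 2.23 in Calcr cKO and 21.6 and 39.5 in control. Cd3e, also below it, read under 1 on every array. Satellite cell markers (8 of 8) summed to 15746 and 16246 in Calcr cKO and 16462 and 22194 in control cells, and all 8 had a lower mean log2 signal in Calcr cKO, against 57.3% of all genes. Of the 8, 3 were lower without overlap, against 12.1% of all genes. Muscle fibre markers (10 of 10) summed to 2188 and 3334 in Calcr cKO and 4184 and 1989 in control, and fibro-adipogenic markers (5 of 8) to 13047 and 14472 in Calcr cKO and 12534 and 15071 in control. The part of these cell types in the difference of the mitosis genes was not tested.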

How the data were processed

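Total RNA of sorted satellite cells was labelled with biotin by a small sample assay and hybridised to 1 array per sample, per the labels' protocols. The authors deposited a signal intensity per probe set, on a linear scale and made with MAS5 per the submitters' processing notes. MAS5 can scale each array as a whole, and the sources used here name no target for that scaling. The titles call the 2 samples of a group biological replicates, and pooling of mice is not stated.

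Gene symbols came from the platform annotation (34945 probe sets with 1 symbol, 932 with several, 9160 with none, and 64 controls left out). Values were analysed as log2(signal + 1) with no further normalization, so folds understate changes of dim probe sets. Probe sets with a mean log2 value at or above the median were kept (22519). limma version 3.58.1 in R 4.3.3 fitted Calcr cKO against control by lmFit and eBayes with an intensity trend, and p-values were adjusted by Benjamini-Hochberg over all kept probe sets, at 0.05. The steps were tested on simulated arrays.

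The 40 genes, the comparison lists and the markers were chosen with earlier results of these data known. Values are printed for every member, for up to 4 genes with the smallest p of each comparison list, and for marker lists as sums; Calcr checks the labels. The rule also allows up to 3 of the brightest genes of a marker list. Pax7 falls within this rule, while Ptprc and Cd3e are named outside it. They are given as defining markers, after their values were seen. Tagln and Des are named outside the rule as exceptions to a sum, also after their values were seen. Promoters are from RefSeq, and Aurkb, Ccna2, Cdc25c, Incenp, Kif20a, Pbk, Stmn1 and Tpx2 had none there. Alternatives were other scalings, a pseudocount of 32, other filters, no trend, a replicate block, other choices of probe set and leaving out each array.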

Additional observations from a re-analysis of the deposited data

How the results depend on the processing

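The median log2 difference of the mitosis and cytokinesis genes was positive under all 13 alternatives and ranged from 0.42 to 0.60 when single arrays were left out. Members higher without overlap numbered 29 to 33 of 35 when single arrays were left out (19.9% to 35.0% of all genes), 26 with the mean over probe sets (7.46%), 27 with arrays centred (12.0%), 16 of 16 with the stricter filter (8.41%) and 17 of 25 with only unsuffixed probe sets (8.62%). Members lower without overlap numbered 0 to 1 when single arrays were left out. Within number 2 the median was 0.50 after quantile normalization and 0.50 with arrays centred on their median, settings that move the median of all genes within number 2 to -0.02 and -0.04. For the other mitotic genes the median was 0.27 with arrays centred on their median, 0.034 with the stricter filter, and 0.13 to 0.29 with single arrays left out. Their count higher without overlap was 9 with the stricter filter and 53 to 69 with single arrays left out, beside the same shares of all genes.

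Over all probe sets, 0 passed in limma with all arrays (163 at an unadjusted p under 0.05), 5 with a replicate block (473 unadjusted, 0 of them members at an adjusted p under 0.05), and 0 to 5 when single arrays were left out, where a lone array was taken to vary as much as the arrays of the pair. No member passed under any alternative. The replicate numbers are not said to pair the samples: same-numbered arrays deviated together (correlation 0.43 across probe sets), which is a hint from the data with only 2 pairs. Of 426 values of single members under alternatives, 416 kept their direction. The other 10 reversed. With single arrays left out, Bub1 ranged from -0.20 to 0.35, Kif20a from -0.28 to 0.75, Kif23 from -0.18 to 1.12, Ndc80 from -0.012 to 0.33 and Racgap1 from -0.23 to 0.90. With the mean over probe sets Bub1b was at -0.041, and with only unsuffixed probe sets Bub1b was at -0.24 and Spc25 at -0.062. The cause was not tested where arrays were left out; the last 3 follow from the other probe set of the gene. Detection calls were not used here, so how far dim probe sets stand above background is unknown.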
